A study of Mus musculus with 13 samples.

Results

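The interferon response and the display of antigen were examined through 43 genes in the livers of female mice, on the scale of log2 fluorescence from 1-colour microarrays. The 43 genes were chosen by name, as genes that interferons switch on or that load peptides onto MHC class I, and with earlier results of these data known. All 43 had a probe on the array, and all 43 were well above background on each of the 13 arrays, among 19531 genes tested in all. The mice were C57BL6 females, 12 weeks old. The 5 samples called HFHS vehicle came from mice on the diet labelled HFHS, a high-fat diet per the series text, with vehicle. The 5 samples called ST pollutants came from mice on the standard diet (ST) with a mixture of 4 pollutants, and the 3 samples called ST vehicle from mice on the standard diet with vehicle. Neither the 4 compounds nor their doses are given in the labels, and the series text can also be read as placing them in the high-fat diet. The sample labels, which all give the standard diet for the pollutants, were followed. Each array held RNA of a separate biological replicate, and the labels do not say whether an animal was sampled alone or pooled.

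As background, type I interferons act on nearly all nucleated cells, type III interferons mainly on epithelial cells, and interferon gamma comes mainly from T and NK cells. Their receptors signal through Janus kinases to transcription factors that bind promoter elements called ISRE and GAS. The induced genes sense viral RNA, block viral replication, attack vacuoles that hold pathogens, and cut and carry peptides for MHC class I. In liver, hepatocytes, Kupffer cells and endothelial cells all respond to interferons, and a low tonic level of these transcripts is normal without infection.

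Of the 43 genes, 33 were matched by symbol to a RefSeq promoter table of build GRCm38.p6. The table spans 250 bases before to 50 bases after each transcription start. It held no entry for Tap2, Dhx58, Mx1, Mx2, Oas2, Usp18, Parp9, Parp14, Iigp1 and Zbp1, so these were not searched. The ISRE core was searched as GAAA, any 2 bases and GAAA again, the GAS core as TTC, any 3 bases and GAA, both on either strand, and a stretch that holds several overlapping ISRE matches counted as a single promoter with the motif. An ISRE core was present for 17 of the 33 genes (51.5%), against 3.99% of the 27025 genes in that table. A GAS core was present for 8 of the 33 (24.2%), against 9.55% of those genes. A match describes letters in this window and is neither a bound site nor a cause. The 6 upstream stretches below belong to genes whose values are described in the sections on the comparisons, and that of B2m, the MHC class I light chain, is shown beside them as a gene that averaged 6.96 in HFHS vehicle, 7.05 in ST pollutants and 7.12 in ST vehicle livers on the log2 signal scale. Capitals mark the ISRE cores, and the sequences are those of RefSeq, read 5′ to 3′ along the strand of the gene.
Isg15 (chr4:156200860-156200911, minus strand): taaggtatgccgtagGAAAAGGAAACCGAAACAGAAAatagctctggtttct
Ifit1 (chr19:34640770-34640828, plus strand): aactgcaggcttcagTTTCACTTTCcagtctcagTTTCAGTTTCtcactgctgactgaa
Ifit3 (chr19:34583358-34583431, plus strand): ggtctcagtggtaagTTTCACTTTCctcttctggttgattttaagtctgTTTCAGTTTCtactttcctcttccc
Gbp3 (chr3:142559984-142560029, plus strand): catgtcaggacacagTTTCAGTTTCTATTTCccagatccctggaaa
Irgm1 (chr11:48871421-48871465, minus strand): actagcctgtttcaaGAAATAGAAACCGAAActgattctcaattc
Bst2 (chr8:71537572-71537617, minus strand): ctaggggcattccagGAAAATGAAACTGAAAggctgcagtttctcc
B2m (chr2:122147533-122147572, plus strand): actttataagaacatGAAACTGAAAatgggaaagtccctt

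In Isg15 the matches overlap into a single run, from position -78 to position -57, counted from the start. In Ifit1 and Ifit3, both on chromosome 19, there are 2 separate cores each. Genes with an ISRE core had a median log2 fold change of 0.26 for HFHS vehicle over ST pollutants, and genes without one a median of 0.16. The corresponding medians were 0.15 and 0.07 for HFHS vehicle over ST vehicle, and -0.08 and -0.14 for ST pollutants over ST vehicle. These medians describe the 17 genes with and the 16 without the ISRE core. For the GAS core the order was reversed in each comparison. Medians of the 8 genes with and the 25 without it were 0.19 and 0.21 for HFHS vehicle over ST pollutants. They were 0.02 and 0.09 for HFHS vehicle over ST vehicle, and -0.20 and -0.10 for ST pollutants over ST vehicle. None of these differences was tested.

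Signals are given as the log2 of the processed signal minus the 75th percentile of the array, so that 0 is that percentile, and a difference of 1 is a doubling. They are compared between samples for the same probe, never between genes. The 75th percentile lay between 779 and 1342 intensity units, and 62.9% to 69.6% of the probes of an array were well above background. The tissue label was checked with 10 hepatocyte markers, all of them well above background on every array. On 3 of the 5 HFHS vehicle arrays, replicates 3, 4 and 5, transcripts of pancreatic acinar cells were also abundant. The mean over 10 such transcripts was 4.61, 3.34 and 6.75 there, against -3.41 to -1.86 on the other 10 arrays. The 5 slides each held an HFHS vehicle and an ST pollutants array, and the ST vehicle arrays were on slides 1, 2 and 5. Calls that were lost without the arrays of slide 1, the acinar-high arrays or a single array are given with the value without them.

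Seen by array, a single sample, ST pollutants replicate 4, stood out by low values of nearly all 43 genes. It was the lowest of the 13 arrays for 32 of the 43 genes, whereas 8.84% of all genes tested had their lowest value there. On that array 42 of the 43 genes lay below their own mean, with a median deviation of -0.53, while the median over all genes was 0.04. The deviation there was shared by each role, with medians of -0.52 for the RNA and DNA sensors, -0.34 for the transcription factors with Usp18, -0.56 for the antiviral effectors, -0.66 for the GTPases, -0.53 for antigen processing and -1.28 for the chemokines Cxcl9 and Cxcl10. At the other end, ST vehicle replicate 3 was the highest array for 12 genes, HFHS vehicle replicate 1 for 11 and HFHS vehicle replicate 3 for 9.

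**Figure D1:**
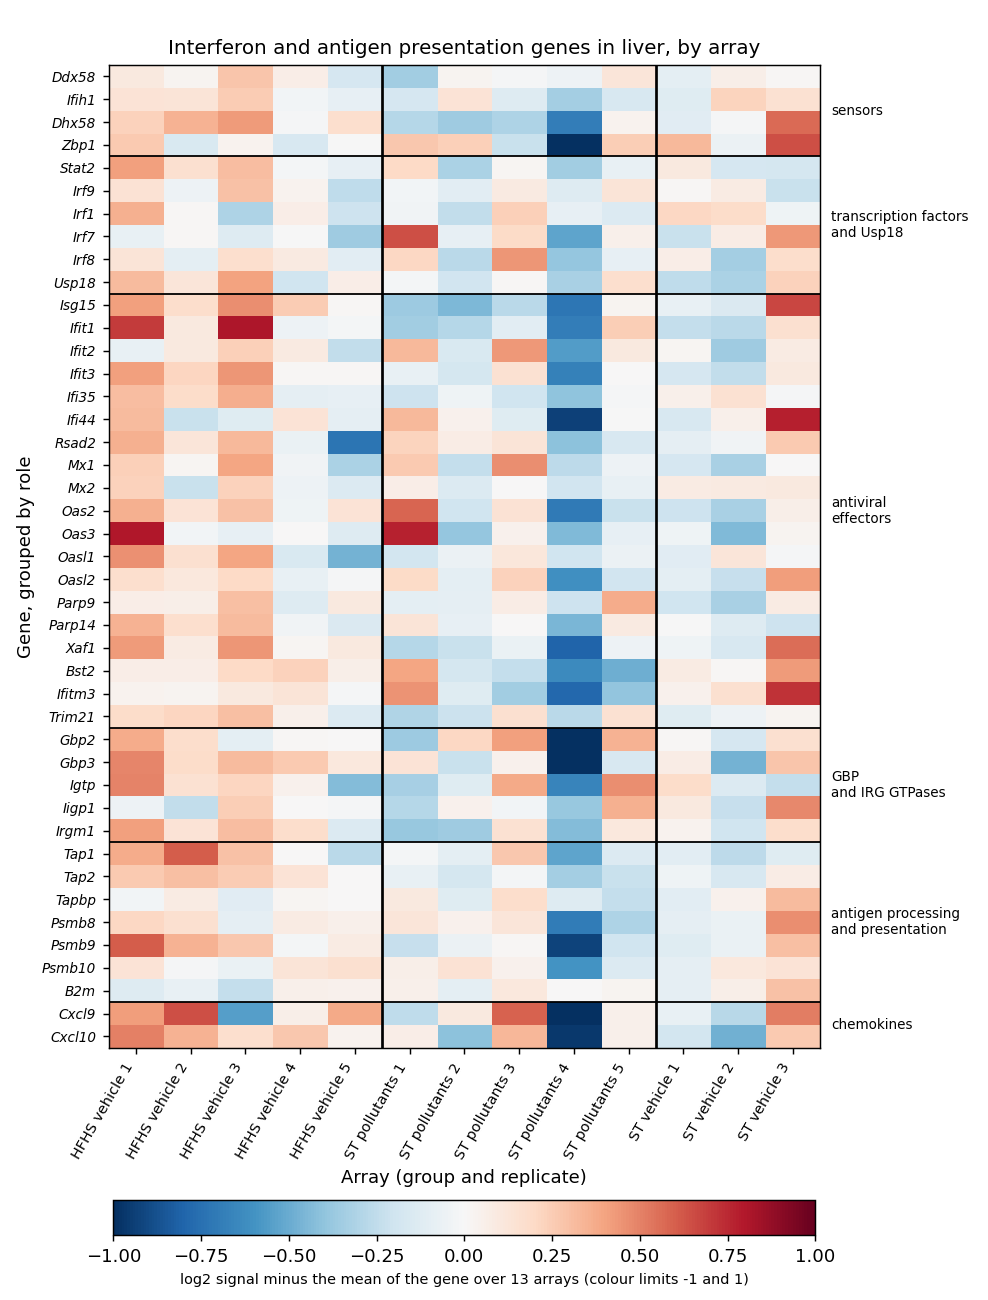
Log2 signal of each of the 43 genes (vertical axis, grouped by role) on each of the 13 arrays (horizontal axis), as the difference from the mean of the gene over all arrays; the colours end at -1 and 1. Blue fills the column of ST pollutants replicate 4, where 42 of the 43 genes lay below their mean, and red is most frequent on HFHS vehicle replicates 1 and 3 and on ST vehicle replicate 3.

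Markers of macrophages were also low on that array. The mean over the 18 tested markers of Kupffer cells and macrophages (of 19 listed) was 0.92 on ST pollutants replicate 4, the lowest of the 13 arrays. Over the groups this mean ranged from 1.15 to 1.37 on HFHS vehicle arrays, from 0.92 to 1.51 on ST pollutants arrays and from 1.04 to 1.52 on ST vehicle arrays. The mean over 9 genes of MHC class II, which antigen-presenting cells carry, was 0.49 there, also the lowest, and ranged from 0.58 to 1.21, from 0.49 to 1.49 and from 0.67 to 1.18 in the same order of groups. Of the macrophage markers only Itgam, an integrin of myeloid cells, was called in any comparison, at 1.07 ± 0.17 for HFHS vehicle over ST pollutants (adjusted p = 0.00672), and its 2 other probes gave 0.24 and 0.05. The Itgam call was lost in 3 of 26 alternative analyses, without slide 1 (adjusted p = 0.0704), with the mean of all its probes (0.159) and with normexp background correction (0.0611). The Kupffer cell genes Clec4f, Vsig4, Timd4 and Cd5l were well above background on all 13 arrays. On ST pollutants replicate 4 the mean over 11 dendritic cell markers was -1.06, the lowest but close to the -1.05 of HFHS vehicle replicate 3. These markers include Bst2, itself among the 43 genes. Bst2 had its own lowest value on ST pollutants replicate 4, so this mean is not separate from the 43 genes. Means of T cell, NK cell, B and plasma cell and neutrophil markers there were -1.86, -2.05, -2.20 and -1.12. Each of these was lower on another array, down to -1.92, -2.21, -2.25 and -1.73 in the same order. In pieces of whole liver, fewer cells of a type and less RNA per cell cannot be told apart, and the part of these markers in the low values was not tested.

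HFHS vehicle against ST pollutants gave the clearest difference among these genes, and it was small. These 2 groups differ in both diet and mixture, so a difference between them cannot be assigned to either. Of the 43 genes, 40 averaged higher in HFHS vehicle than in ST pollutants livers, with a median log2 fold change of 0.20. The median over all genes was -0.0047, and 48.9% of all genes had a positive value. The 43 genes shifted together on some arrays, so these 40 are not independent results. The median deviation of the 43 genes on an array had an SD of 0.19 within groups, pooled over the 3 groups. A single gene, the peptide transporter subunit Tap2, passed an adjusted p of 0.05, against 3.88% of all genes tested in either direction, 1.57% higher and 2.3% lower, and 1 of 43 is near that background. At an unadjusted p under 0.05, 10 of the 43 averaged higher and 0 lower, against 7.65% and 10.6% of all genes. These were Tap2, Dhx58, Isg15, Psmb9, Xaf1, Ifi35, Ifit1, Gbp3, Irgm1 and Ifit3. Without ST pollutants replicate 4 the median was 0.10, with 32 genes positive and 11 negative, 6 genes at an unadjusted p under 0.05 and 0 called. Without the 3 acinar-high arrays the median was 0.29, and without slide 1 it was 0.19.

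Among the sensors, Dhx58 encodes LGP2, a helicase that tunes the recognition of viral RNA. Its signal was -0.47, -0.36, -0.27, -0.71 and -0.53 on the HFHS vehicle arrays, -0.99, -1.06, -1.01, -1.40 and -0.67 on the ST pollutants arrays, and -0.82, -0.71 and -0.14 on the ST vehicle arrays. The HFHS vehicle arrays lay above all ST pollutants arrays but replicate 5, which just exceeded the lowest HFHS vehicle array. The ST vehicle arrays spanned the HFHS vehicle range and lay above 4 of the 5 ST pollutants arrays. The log2 fold change of HFHS vehicle over ST pollutants was 0.56 ± 0.15 (SE), or 1.47-fold, with an adjusted p of 0.0713. The difference was positive on 5 of 5 slides (0.14 to 0.74). Dhx58 was called in 3 of 26 alternative analyses, over which the adjusted p ranged from 0.0220 to 0.216. These were slide as a fixed block (0.0425), slide as a random block (0.0220) and leaving out ST vehicle replicate 3 (0.0406). The other sensors were the RNA helicases Ddx58 (RIG-I) and Ifih1 (MDA5) and the Z-form nucleic acid sensor Zbp1, with fold changes of 0.11 to 0.21 on the log2 scale, none of them called.

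Of the 6 transcription factors and feedback genes, none was called. Stat2, a part of the complex that binds ISRE, had the largest value, 0.26 ± 0.13 (adjusted p = 0.322). Irf7, which amplifies type I interferon production, had the lowest, at -0.17 ± 0.19. The others were Usp18, the protease that removes ISG15 and damps the receptor, and Irf1, Irf8 and Irf9, and their values lay between 0.03 and 0.21.

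The antiviral effectors held 5 of the 10 genes at an unadjusted p under 0.05. Isg15, a ubiquitin-like protein that is joined to other proteins, had signals of 3.71, 3.47, 3.77, 3.55 and 3.31 on the HFHS vehicle arrays, 2.94, 2.85, 3.03, 2.58 and 3.33 on the ST pollutants arrays, and 3.23, 3.15 and 3.97 on the ST vehicle arrays. Here too a single ST pollutants array, replicate 5, reached the HFHS vehicle range, and ST vehicle replicate 3 was the highest of all. The log2 fold change of HFHS vehicle over ST pollutants was 0.62 ± 0.17 (1.53-fold, adjusted p = 0.0741), the largest of the 43 genes in this comparison. It was positive on 4 of 5 slides (-0.02 to 0.97), and the second Isg15 probe gave 0.56. Isg15 was called in 3 of 26 alternatives, over which the adjusted p ranged from 0.0301 to 0.297, and one of them left out ST vehicle replicate 3 (0.0324), which adds only to the estimate of spread in this comparison.

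Xaf1, a promoter of cell death, had signals of 1.00, 0.66, 1.01, 0.60 and 0.68 on the HFHS vehicle arrays, 0.29, 0.35, 0.51, -0.22 and 0.53 on the ST pollutants arrays, and 0.53, 0.42 and 1.14 on the ST vehicle arrays. All HFHS vehicle arrays lay above all ST pollutants arrays. Such separation in this direction was found for 2 of the 43 genes, Tap2 and Xaf1, and for 2.74% of all genes tested. In the other direction it was 0 of 43, against 4.19% of all genes. Its log2 fold change was 0.50 ± 0.17 (adjusted p = 0.137), positive on 5 of 5 slides (0.15 to 0.82).

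The other 3 of these effectors were Ifit1 and Ifit3, which bind foreign RNA, and Ifi35, a partner of other interferon-induced proteins. They gave 0.54 ± 0.21, 0.37 ± 0.15 and 0.31 ± 0.11 in that order, with adjusted p-values of 0.187, 0.212 and 0.150. The remaining 14 effectors lay between -0.01 (Ifit2) and 0.35 (Bst2). They include the GTPases Mx1 and Mx2 at 0.03 and 0.08, and Rsad2 (viperin), an enzyme that makes a chain-ending nucleotide, at 0.03. The oligoadenylate synthetases Oas2 and Oas3, which activate an RNA-cutting enzyme, stood at 0.25 and 0.13.

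The GTPases of the GBP and IRG families assemble on vacuoles that hold pathogens. All 5 averaged higher in HFHS vehicle than in ST pollutants livers and none was called. Gbp3 gave 0.52 ± 0.21 (adjusted p = 0.205) and Irgm1 0.36 ± 0.15 (adjusted p = 0.209), whereas Gbp2, Igtp and Iigp1 lay between 0.05 and 0.19. On ST pollutants replicate 4, Gbp2 stood at -0.56 and Gbp3 at 0.57, the lowest values of either gene, and the next lowest arrays stood at 0.16 for Gbp2 and 1.12 for Gbp3.

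In antigen processing, Tap2 pairs with Tap1 to pump peptides into the endoplasmic reticulum for MHC class I. Its probe lies at chr17:34353116-34353175 in build mm9, per the files. Its signal was 3.04, 3.08, 3.02, 2.91 and 2.78 on the HFHS vehicle arrays, 2.70, 2.60, 2.75, 2.43 and 2.55 on the ST pollutants arrays, and 2.73, 2.61 and 2.85 on the ST vehicle arrays. Every HFHS vehicle array lay above every ST pollutants array, and the ST vehicle arrays overlapped both. Tap2 averaged 2.97 ± 0.12 in HFHS vehicle livers, against 2.61 ± 0.13 in ST pollutants livers (SD, n = 5 each). This is a log2 fold change of 0.36 ± 0.09, or 1.28-fold, with an adjusted p of 0.0398 from limma.

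The Tap2 call stood close to the threshold. The difference was positive on 5 of 5 slides (0.23 to 0.48) and in all 26 alternative analyses (0.23 to 0.45), and it stayed called in 9 of them. With slide as a fixed block the adjusted p was 0.0523. It lost the call, with adjusted p-values of 0.0522 to 0.108, when any of HFHS vehicle replicates 1 to 4, ST vehicle replicate 1 or ST pollutants replicates 1, 2, 4 and 5 was left out, one at a time. Without the acinar-high arrays it was 0.0904, and without slide 1 it was 0.159.

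Psmb9, a catalytic subunit of the immunoproteasome that replaces a constitutive one, neighbours Tap1, Psmb8 and Tap2 in the MHC region of chromosome 17. Its signal was 3.51, 3.25, 3.18, 2.89 and 2.98 on the HFHS vehicle arrays, 2.67, 2.84, 2.92, 1.98 and 2.71 on the ST pollutants arrays, and 2.79, 2.84 and 3.21 on the ST vehicle arrays. ST pollutants replicate 3 overlapped the lowest HFHS vehicle array, and replicate 4 was far below all others. The log2 fold change of HFHS vehicle over ST pollutants was 0.54 ± 0.18 (adjusted p = 0.124), and it was positive on 5 of 5 slides (0.26 to 0.91). The second Psmb9 probe gave 0.51, but it was dim, with a mean of -4.80, and well above background on only 5 of the 13 arrays. It thus passed the filter through a single group, and its value is not taken as support. The other members here did not pass: Tap1, at 0.30 ± 0.17, the subunits Psmb8 and Psmb10 at 0.22 and 0.17, the loading factor Tapbp at 0.04, and B2m at -0.09. The chemokines Cxcl9 and Cxcl10, which attract T cells through CXCR3, gave 0.41 ± 0.36 and 0.45 ± 0.22.

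**Figure D2:**
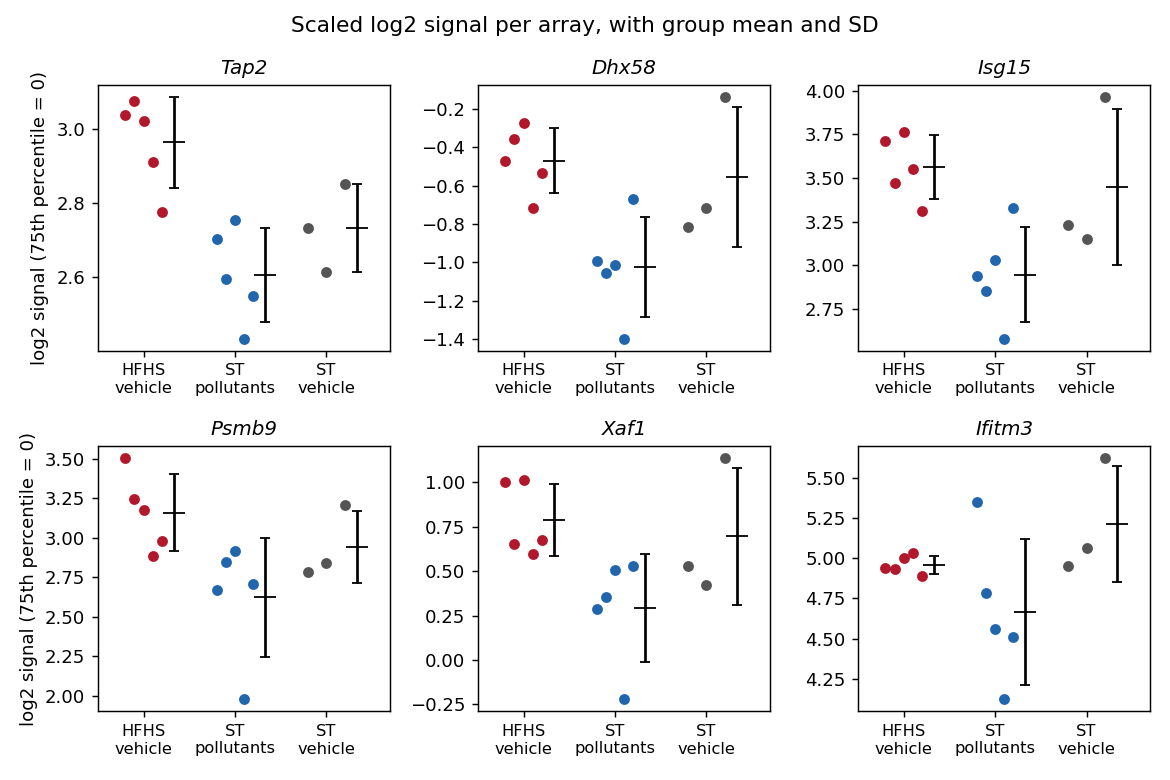
Scaled log2 signal (vertical axis, 0 is the 75th percentile of the array) of 6 genes in HFHS vehicle, ST pollutants and ST vehicle livers. Each point is an array, and the bar beside the points is the group mean with its SD (n = 5, 5 and 3). For Tap2 and Xaf1 no ST pollutants array reaches the HFHS vehicle arrays, and for Dhx58, Isg15, Xaf1 and Ifitm3 a single ST vehicle array, replicate 3, is the highest point of all.

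**Figure D3:**
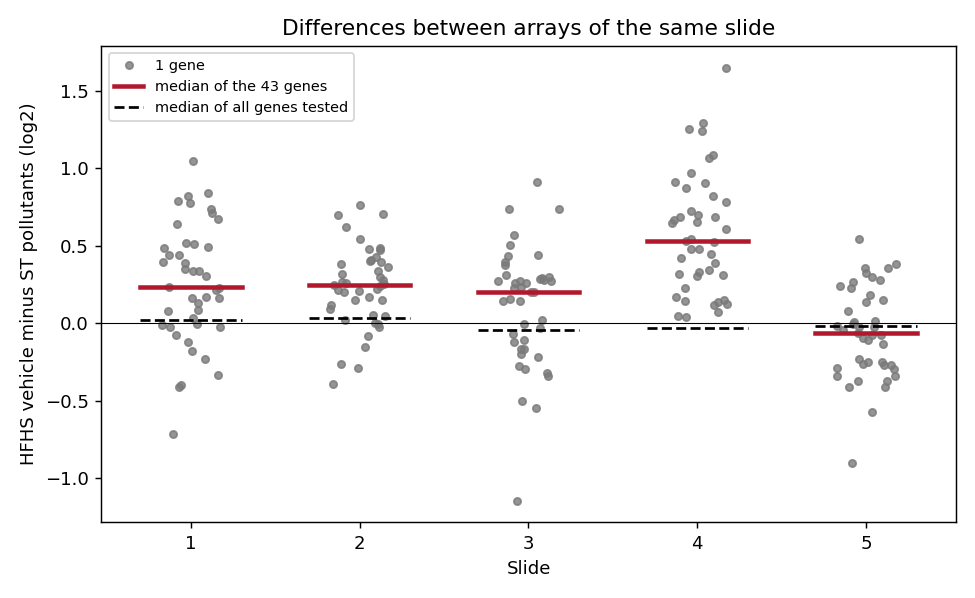
Log2 difference between the HFHS vehicle and the ST pollutants array of the same slide (vertical axis) for each of the 43 genes, by slide (horizontal axis). The medians of the 43 genes, the red bars, were 0.23, 0.25, 0.20 and 0.53 on slides 1 to 4 and -0.06 on slide 5, and the dashed bars are the medians of all genes tested.

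Within slides the pattern was not uniform. The median of the 43 genes was positive on slides 1 to 4 and slightly negative on slide 5, with 31, 36, 27, 43 and 16 of the 43 genes positive on slides 1 to 5. Slide 4, with the largest median, is the one that holds ST pollutants replicate 4.

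HFHS vehicle against ST vehicle asks what the high-fat diet did to these genes. None of the 43 passed an adjusted p of 0.05, against 0.686% of all genes tested, 0.236% higher and 0.451% lower. The smallest adjusted p was 0.363, and at an unadjusted p under 0.05 there was 1 higher gene, Tap2, and 0 lower, against 4.97% and 7.1% of all genes. That count of 1 became 6 with slide as a fixed block, 2 with slide as a random block and 11 with the replicate block, while 2358 of all genes became 2724, 3040 and 2658, and none of the 43 was called under any of these. The median log2 fold change was 0.09, with 30 genes positive and 13 negative, and the median over all genes was -0.02, with 45.5% of them positive. For none of the 43 did the groups fail to overlap, against 3.8% of all genes for higher and 5.31% for lower values.

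Tap2 gave 0.23 ± 0.10 in this comparison, and its partner Tap1 gave 0.36 ± 0.20 (adjusted p = 0.524). The Tap1 signal was -0.12, 0.11, -0.20, -0.49 and -0.76 on the HFHS vehicle arrays, -0.51, -0.59, -0.22, -1.02 and -0.63 on the ST pollutants arrays, and -0.60, -0.76 and -0.61 on the ST vehicle arrays. The first 4 HFHS vehicle arrays lay above the ST vehicle arrays and replicate 5 at their lower end. Without the acinar-high arrays, which include that replicate, the Tap1 value was 0.65.

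The RNA-binding effectors Ifit1 and Ifit3 came next by p. Ifit1 had signals of 0.10, -0.50, 0.21, -0.64 and -0.62 on the HFHS vehicle arrays, -0.94, -0.88, -0.70, -1.29 and -0.35 on the ST pollutants arrays, and -0.83, -0.87 and -0.44 on the ST vehicle arrays. Replicates 1 and 3 of HFHS vehicle stood apart as the highest, and the other 3 lay within the range of ST vehicle. The log2 fold change of HFHS vehicle over ST vehicle was 0.42 ± 0.24 (adjusted p = 0.568).

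Ifit3 had signals of 2.17, 1.98, 2.20, 1.77 and 1.77 on the HFHS vehicle arrays, 1.69, 1.59, 1.91, 1.09 and 1.77 on the ST pollutants arrays, and 1.59, 1.52 and 1.86 on the ST vehicle arrays. It showed the same order of HFHS vehicle arrays, with replicates 1 and 3 at the top, and gave 0.32 ± 0.18 (adjusted p = 0.530).

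Parp14, an ADP-ribosyl transferase, had signals of 2.27, 2.09, 2.24, 1.89 and 1.78 on the HFHS vehicle arrays, 2.05, 1.84, 1.93, 1.47 and 2.01 on the ST pollutants arrays, and 1.92, 1.79 and 1.71 on the ST vehicle arrays. It gave 0.25 ± 0.15 (adjusted p = 0.597), and the difference was positive on the 3 slides that hold both groups (0.07 to 0.35).

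By role, 4 of 7 antigen processing genes, 14 of 19 effectors, 4 of 5 GTPases, 2 of 4 sensors, 4 of 6 transcription factors and feedback genes and both chemokines averaged higher in HFHS vehicle than in ST vehicle livers. Among the 13 genes that averaged lower were Ifitm3, which blocks the entry of viruses into the cell, at -0.25 ± 0.23, and Zbp1 at -0.31 ± 0.33. On the 3 slides with both groups the median of the 43 genes was 0.31 on slide 1, 0.29 on slide 2 and -0.23 on slide 5, with 37, 31 and 5 genes positive. Slide 5 is the one that holds ST vehicle replicate 3. Without that array the median was 0.19, with 36 genes positive, and without HFHS vehicle replicate 1 or 3 it was 0.05. Without the acinar-high arrays it was 0.18, and without slide 1 it was 0.03.

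ST pollutants against ST vehicle asks what the mixture did on the standard diet. None of the 43 genes was called, against 0.983% of all genes tested, 0.543% higher and 0.44% lower, and the smallest adjusted p was 0.289. The sign was mostly negative, with 32 of the 43 genes averaging lower in ST pollutants livers, a median log2 fold change of -0.12 and a median over all genes of -0.01. At an unadjusted p under 0.05, 3 genes averaged lower, Dhx58, Isg15 and Ifitm3, and 0 higher, against 6.27% and 5.88% of all genes. This comparison shares its ST pollutants arrays with the first one and its ST vehicle arrays with the second, so the 3 sets of values are not independent.

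Dhx58 gave -0.47 ± 0.18 (adjusted p = 0.289) and Isg15 -0.50 ± 0.20 (adjusted p = 0.317), with the signals given above. The second Isg15 probe gave -0.53. For both genes the ST pollutants array was the lower one on all 3 slides that hold both groups, by 0.17 to 0.53 for Dhx58 and 0.29 to 0.64 for Isg15.

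Ifitm3 had signals of 4.94, 4.93, 5.00, 5.03 and 4.89 on the HFHS vehicle arrays, 5.35, 4.78, 4.56, 4.12 and 4.51 on the ST pollutants arrays, and 4.95, 5.07 and 5.62 on the ST vehicle arrays. The HFHS vehicle arrays kept to a narrow band, with an SD of 0.06, while the ST pollutants arrays spread widely (SD 0.45) and replicate 1 lay above 2 of the ST vehicle arrays. The difference of ST pollutants from ST vehicle on the log2 scale was -0.55 ± 0.23 (adjusted p = 0.339). On slide 1 the ST pollutants array was higher by 0.40, and on slide 5 the difference was -1.11.

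Bst2, or tetherin, holds budding viruses at the cell surface. Its signals were 4.50, 4.50, 4.63, 4.67 and 4.49 on the HFHS vehicle arrays, 4.83, 4.26, 4.20, 3.80 and 3.95 on the ST pollutants arrays, and 4.52, 4.45 and 4.87 on the ST vehicle arrays. As for Ifitm3, replicate 1 of ST pollutants was high and the other 4 lay below all ST vehicle arrays. ST pollutants over ST vehicle gave -0.40 ± 0.19 (adjusted p = 0.434), close to that of Xaf1, -0.40 ± 0.20 (adjusted p = 0.458). HFHS vehicle over ST pollutants gave 0.35 ± 0.16 for Bst2 (adjusted p = 0.289), and the value ranged from 0.22 with normexp to 0.52 without slide 1. It was called in 1 of 26 alternatives, without ST pollutants replicate 1 (0.51, adjusted p = 0.0450), and was 0.25 without replicate 4.

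Mx2 was the single gene of the 43 whose groups did not overlap, with -0.40, -0.61, -0.47, -0.66 and -0.55 in ST pollutants livers against -0.39, -0.38 and -0.37 in ST vehicle livers. It was lower in ST pollutants by 0.16 ± 0.11 (adjusted p = 0.696), and 4.39% of all genes separated in this direction, with 3.91% in the other. The ST vehicle values happened to lie within 0.02 of each other, and HFHS vehicle spanned -0.69 to -0.24.

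By role, all 4 sensors averaged lower in ST pollutants than in ST vehicle livers (median -0.34), as did 6 of 7 antigen processing genes (-0.13), 4 of 5 GTPases (-0.17), 13 of 19 effectors (-0.08), both chemokines (-0.16) and 3 of 6 transcription factors and feedback genes (-0.00398). Without ST pollutants replicate 4 the median of the 43 genes was -0.0068, with 19 genes positive and 24 negative. Without ST vehicle replicate 3 it was -0.04, with 17 positive and 26 negative, and 0 genes at an unadjusted p under 0.05. Within slides 1, 2 and 5 the medians were 0.08, 0.00417 and -0.21.

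**Figure D4:**
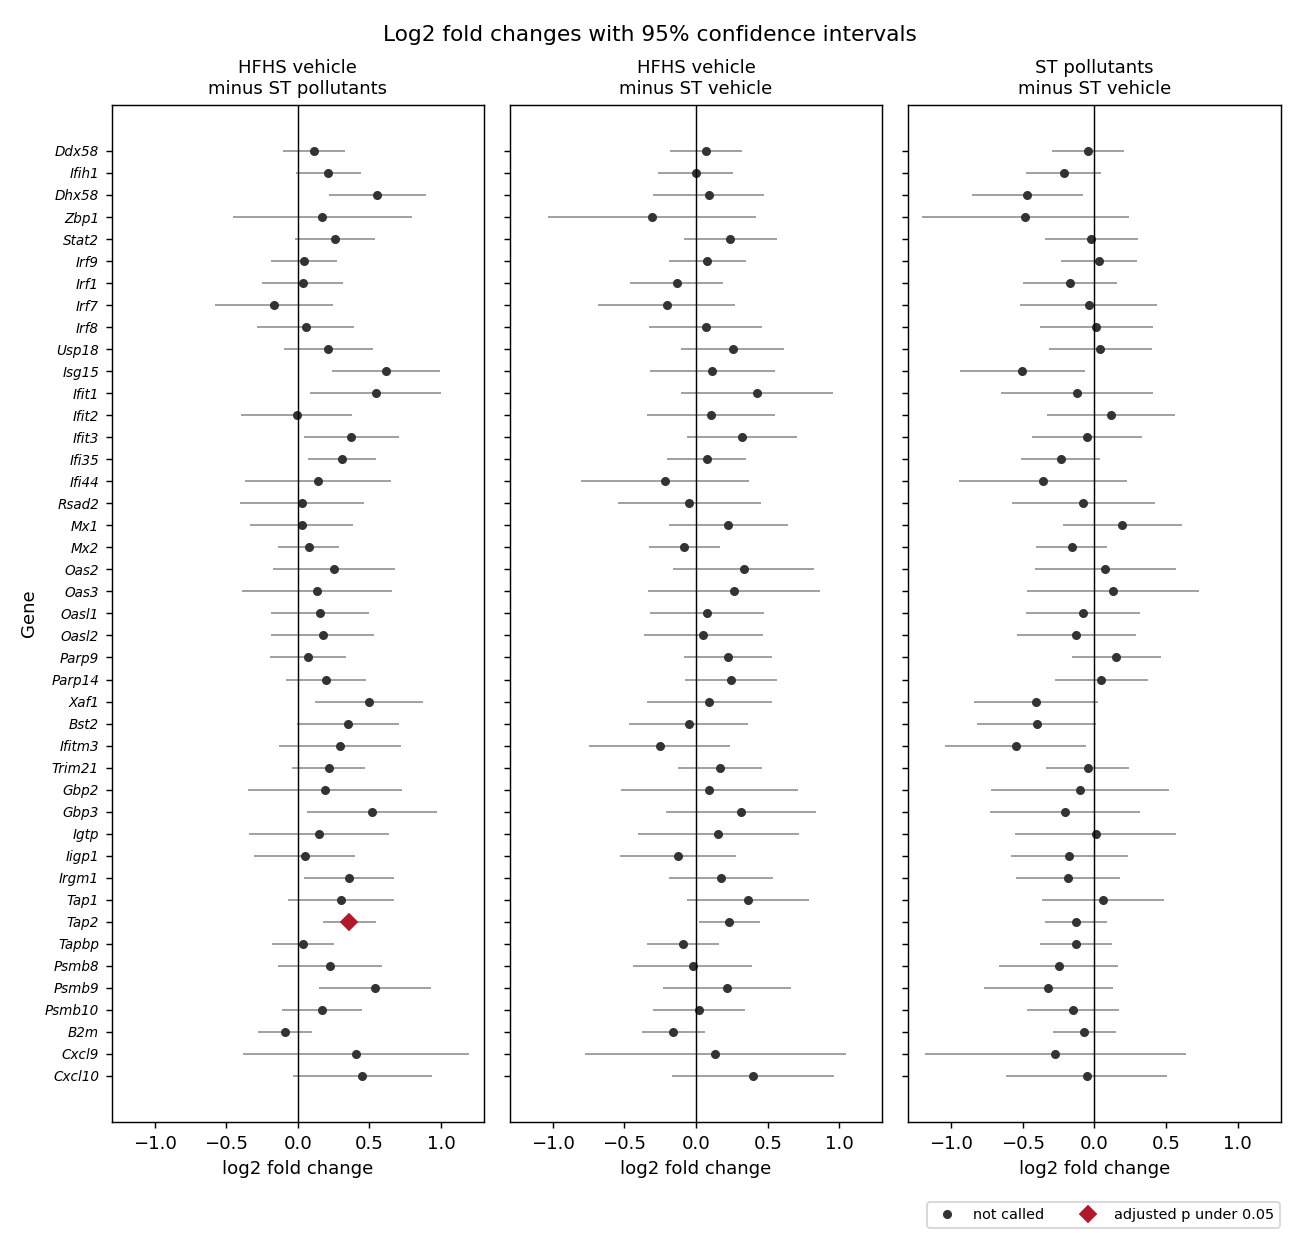
Log2 fold change (horizontal axes) with its 95% confidence interval for the 43 genes (vertical axis, by role) in the 3 comparisons. Tap2 in HFHS vehicle minus ST pollutants is the only gene past the threshold, and most intervals cross 0, namely 33 of 43 in that comparison, 42 in HFHS vehicle minus ST vehicle and 40 in ST pollutants minus ST vehicle.

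The intervals set the size of change that these arrays leave room for. The 95% confidence interval lay within a 2-fold change in either direction for 41 of the 43 genes in HFHS vehicle against ST pollutants, for 41 in HFHS vehicle against ST vehicle and for 40 in ST pollutants against ST vehicle. The widest bounds were those of Cxcl9, up to 1.20 and 1.05 for HFHS vehicle over ST pollutants and over ST vehicle, and of Zbp1, down to -1.21 for ST pollutants over ST vehicle. These are also the genes that ranged most over all 13 arrays, by 2.24 for Cxcl9 and 2.06 for Zbp1. A p that misses the threshold does not show that the groups were alike, and the 3 arrays of ST vehicle widen the intervals of both comparisons that use them.

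Genes around the 43, in lists by function, were called about as often as all genes. Of the 133 tested, 5 were called in HFHS vehicle against ST pollutants (3.76%), 2 higher and 3 lower, against 3.88% of all genes, 1.57% higher and 2.3% lower. In the main analysis no gene of these lists was called in HFHS vehicle against ST vehicle or in ST pollutants against ST vehicle. In HFHS vehicle against ST pollutants, 0 were called among 9 interferon ligands and receptors, 15 genes of signalling and its inhibitors, 14 other GBP and IRG GTPases, 23 MHC class I heavy chains and loading factors, 5 genes of the proteasome and 9 of MHC class II. Among 12 nucleic acid sensing genes 1 was higher and 1 lower, and among 46 other interferon-stimulated genes 1 was higher and 2 lower.

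Samd9l, an interferon-induced antiviral gene, was the clearest of these. Its signal was 1.85, 1.90, 1.95, 1.98 and 1.83 on the HFHS vehicle arrays, 1.16, 1.65, 1.24, 1.07 and 1.25 on the ST pollutants arrays, and 1.45, 1.35 and 1.36 on the ST vehicle arrays. All HFHS vehicle arrays lay above all arrays of both other groups. Samd9l was higher in HFHS vehicle than in ST pollutants livers by 0.63 ± 0.10 (adjusted p = 0.00592), and its second probe gave 0.62. The call was lost with normexp background correction (adjusted p = 0.0780), without slide 1 (0.0707) and without the acinar-high arrays (0.0849), and its value over ST vehicle was 0.51 ± 0.11 (adjusted p = 0.0678). That value over ST vehicle was positive in all 26 alternatives and called in 3 of them, with adjusted p-values of 0.0153 to 0.469.

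Traf3, an adaptor between viral sensors and interferon production, was higher in HFHS vehicle than in ST pollutants livers on 5 of 5 slides (0.16 to 0.52). It averaged higher by 0.35 ± 0.08 (adjusted p = 0.0281). It stayed called in 13 of 26 alternatives, and among single arrays it was lost without HFHS vehicle replicate 2, 3 or 4 or ST pollutants replicate 1, 4 or 5 (adjusted p-values of 0.0519 to 0.0767). It was also lost without slide 1 (0.0771), without the acinar-high arrays (0.248), with normexp (0.219), median scaling (0.164), the deposited table (0.0560), no filter on dim probes (0.0709) and the replicate block (0.0573). For the 3 genes called lower, other probes of the same gene gave values nearer 0 or of the other sign, and all 3 calls were lost without slide 1 (adjusted p-values of 0.0704 to 0.0938) and kept without the acinar-high arrays (0.0192 to 0.0207). Trim25, which activates RIG-I, gave -1.09 ± 0.16 (adjusted p = 0.00587) by its brightest probe and 0.20 by the other. Sp110, a nuclear body protein, gave -0.78 ± 0.14 (adjusted p = 0.0116), with 3 other probes at -0.26, -0.05 and 0.18. Ms4a4c, a membrane protein of the MS4A family, gave -0.86 ± 0.13 (adjusted p = 0.00593), with 2 other probes at -0.10 and -0.04. With the mean of all probes of a gene, Trim25 gave -0.45 (adjusted p = 0.0402), whereas Sp110 (0.387) and Ms4a4c (0.199) were not called. Within slides the differences of Trim25, Sp110 and Ms4a4c ran in parallel, so the 3 calls are not separate results. The differences were -1.69, -1.14 and -1.25 on slide 1 and -0.53, -0.28 and -0.38 on slide 4, the extremes of each gene.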

How the data were processed

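Total liver RNA of 13 samples was labelled with Cy3 and hybridised to Agilent 1-colour arrays on 5 slides. The deposited scanner files hold linear intensity values, and the authors extracted them with Agilent Feature Extraction 11.5.1.1, per the file headers and the submitters' processing notes. The authors also deposited a table of log2 values of 26082 probes (limma is among the tools in the submitters' processing notes), used here as an alternative only. Its columns matched the scanner files of their own arrays best (13 of 13).

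From there, the processed signal was log2-transformed with no pseudocount, spots marked as outliers were set to missing, and the 75th percentile of each array was subtracted. Of 39429 probes, 28353 were named by accession, 3185 by symbol and 271 by an older symbol, and 7620 kept the file's name. Probes had to exceed background on all arrays of 1 or more groups, and the probe of highest mean stood for a gene. limma 3.58.1 in R 4.3.3 fitted 1 model of the 3 groups, with two-sided contrasts and Benjamini-Hochberg adjustment over 19531 genes, called at 0.05. The errors are standard errors of that model, and the number of arrays limits the precision. The pipeline was also run on simulated data, with independent noise per array and no slide effect. That run does not bear on calls that depend on slide. The genes, roles, lists, tests and alternatives were chosen with earlier results of these data known, and values by array are given for called genes and the 5 of smallest p per comparison; genes of other lists are named where called (at most 3 per list and comparison), and Mx2, Gbp2 and Gbp3 were added after their values were seen. Probe positions are on build mm9.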

Additional observations from a re-analysis of the deposited data

Results flagged for a closer look

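Of 88 groups of 5 arrays tested for a sample far from the others, 2 were marked, and chance alone marks about 1 in 20 such groups. Oas3, an oligoadenylate synthetase, stood at -2.80 on HFHS vehicle replicate 1, with the next array of the group at -3.59, a gap of 0.853 of the range of the group. Psmb9, the immunoproteasome subunit, stood at 1.98 on ST pollutants replicate 4, with the next array at 2.67, a gap of 0.739 of the range. That array was the lowest of all 13 for 32 of the 43 genes. The median of the 43 genes was also tested in both groups of 5, and no array was marked for it.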

How the results depend on the processing

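Of the 43 genes, 0 were called in HFHS vehicle against ST vehicle and in ST pollutants against ST vehicle under each of 26 alternatives, and the median of the 43 genes kept its sign in all 3 comparisons under all 26. That sign is taken against 0, not against the median of all genes. With normexp background correction in HFHS vehicle against ST vehicle, the 43 genes had a median of 0.05, below the 0.09 of all genes. In the main analysis these medians were 0.09 and -0.02. For HFHS vehicle against ST pollutants the median ranged from 0.10 to 0.29. The count of genes called there, 1 in the main analysis, was 0 with normexp background correction, median scaling, the deposited table, no filter on dim probes, only the 2 groups compared, and without slide 1 or the acinar-high arrays. It was 2 with an intensity trend and robust variances, 3 with slide as a random block (correlation 0.278), and 0 to 3 when a replicate was left out. With slide as a fixed block it was 1, Dhx58 in place of Tap2. Tap2 lost its call with normexp (adjusted p = 0.385), median scaling (0.166), the deposited table (0.0684), no filter (0.0934) and the 2 groups alone (0.0611). B2m in HFHS vehicle over ST pollutants, -0.09 in the main analysis and not called, was 0.07 with quantile normalization or the deposited table.

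The number of all genes called depended strongly on the setting. In HFHS vehicle against ST vehicle it was 134, and 45 with normexp, 68 with median scaling, 55 with no filter, 84 and 338 with slide as a fixed and a random block, 53 with the replicate block, 25 with the 2 groups alone, 202 with trend and robust variances, 1 without slide 1, 4 without the acinar-high arrays and 23 to 140 when a replicate was left out. In ST pollutants against ST vehicle it was 192, and in the same order 22, 48, 70, 67 and 448, 44 with the replicate block, 40, 296, 3, 92 and 39 to 175. In HFHS vehicle against ST pollutants it was 757, and 284 with normexp, 323 with median scaling, 361 with no filter, 1653 with slide as a random block, 1 without slide 1, 289 without the acinar-high arrays and 348 to 712 when a replicate was left out. Of these, 40.6% were higher in HFHS vehicle, and 29.9% with normexp, which moved the median of all genes by 0.11 in HFHS vehicle against ST vehicle and by 0.0993 in HFHS vehicle against ST pollutants.

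Same-numbered replicates deviated together only in part, with correlations of -0.17 to 0.56, so the numbers were not taken to pair the samples. Arrays of the same slide did deviate together, with a correlation over 0.1 for 10 of 11 pairs (-0.02 to 0.56), against 7 of 44 pairs on different slides. The main model has no slide term, so the values with slide as a block stand beside it. With the replicate block, the 43 genes held 0, 0 and 1 calls in the 3 comparisons, 53, 44 and 563 of all genes were called, and the Tap2 adjusted p was 0.0364. The causes of these shifts were not tested.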

Other observations

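Markers of other liver cell types, in lists chosen with earlier results known, showed shared signs in some comparisons, and none of the genes in the 6 lists given here was called. In HFHS vehicle against ST vehicle, 0 of 7 cholangiocyte markers averaged higher, with a median log2 fold change of -0.50. Their mean ranged from -2.82 to -2.57 on HFHS vehicle arrays and from -2.23 to -2.21 on ST vehicle arrays. In the same comparison 0 of 6 tested NK cell markers and 0 of 7 tested neutrophil markers averaged higher, with medians of -0.20 and -0.22. The NK cell genes Ncr1 and Klrk1 and the neutrophil gene Cxcr2 were well above background on 0 arrays. All 6 tested adipocyte markers averaged lower there, with a median of -0.57. All 4 tested erythroid markers averaged higher than in ST vehicle livers both in HFHS vehicle and in ST pollutants livers, with medians of 0.31 and 0.52. In HFHS vehicle against ST pollutants, 0 of 10 hepatocyte markers averaged higher, with a median of -0.12, against 48.9% of all genes. At an unadjusted p under 0.05, 2 of the 10 were lower, against 10.6% of all genes. Of the other lists given here, 1 of 7 cholangiocyte, 2 of 6 NK cell and 2 of 6 adipocyte markers averaged higher there. For erythroid and neutrophil markers it was 1 of 4 and 4 of 7. Shares of cell types were not tested.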
